A study of Mus musculus with 12 samples.

Results

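Untreated RAW264.7 cells with a knockout of Socs1 were compared with untreated wild-type cells of the same line, in 2 libraries each, over all genes of the deposited count table. The members were the 4 libraries of these groups out of 12 in the series, and 12222 of 54232 genes had enough counts to be tested. RAW264.7 is a continuous line of mouse macrophages. The other 8 libraries were 2 of untreated Ing4 knockout cells and 6 of wild-type, Ing4 knockout and Socs1 knockout cells given lipopolysaccharide (LPS, a bacterial cell wall component) at 100 ng/ml for 3 h. All groups share the parent line, and the labels name Ing4 or Socs1 as the only gene removed. The sources used here do not give how the genes were disrupted or whether a knockout is 1 clone. Separate cultures for the 2 libraries of a group are not stated either, so the p-values reflect library-to-library spread alone, which may be technical.

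SOCS1 is an inhibitor of cytokine signalling that is itself induced by cytokines and by LPS. It blocks the JAK kinases directly, and through its SOCS box it recruits elongins and a cullin to mark bound proteins with ubiquitin. In macrophages it is best known for limiting responses to interferon gamma and to LPS. The comparison of untreated cells shows what differed between the lines without an added stimulus.

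The 4 libraries held between 17250815 and 20932111 counts. Levels are given as CPM (the read count as a share of the scaled library total), and changes as log2 of knockout over wild type from the edgeR fit, with SE, the standard error. The macrophage markers were present in both genotypes: the 34 genes of the macrophage list summed to 23647 and 28654 CPM in wild type and to 22791 and 27556 CPM in the knockout. Of 30 markers of other cell types 1 passed the filter on low counts, the neutrophil gene S100a8 at 1.01 to 1.52 CPM. The defining T and NK cell markers Cd3e and Ncr1 had 0 counts in all 4 libraries, as had the fibroblast marker Col1a1 and the epithelial marker Epcam. One library of the series stood apart, the first LPS-treated Socs1 knockout library, in which Tnf reached 1380 CPM against 10525 CPM in the second. It had no part in the untreated comparison, and results that use it are given with and without it.

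The Socs1 transcript did not check the label. It stood at 0.18 and 0.50 CPM in untreated wild type and at 0.30 and 0.35 CPM in the knockout. The groups overlapped, and the log2 change was -0.05 (SE 0.66, edgeR adjusted p = 1). After LPS the transcript was higher in every library, at 9.08 and 9.07 CPM in wild type and 2.73 and 7.14 CPM in the knockout, the first of these from the library that stood apart. Reads from a gene with an inactivating lesion can still be counted, so these values do not show whether SOCS1 protein was made.

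At an adjusted p of 0.05 edgeR called 18 of 12222 genes (0.147%), 17 lower in the knockout (0.139%) and 1 higher (0.00818%). The genes that fell included the antigen-presenting molecule H2-M3, the receptor tyrosine kinase Axl, the macrophage protease Mmp12, the ceramide synthase Cers4 and the platelet chemokine Pf4. The gene that rose was the homeobox gene Hoxc4. In bulk RNA, fewer cells that express a gene and less of its RNA per cell cannot be told apart. At an unadjusted p of 0.05, 918 genes differed (7.51%), of which 643 were lower (5.26%) and 275 higher (2.25%). DESeq2, run on the same 6 untreated libraries, called 204 genes (1.67%), 167 lower and 37 higher, and all 18 edgeR calls were among them. The count moved with the library left out: without the first or the second wild-type library edgeR called 0 genes, without the first or second knockout library 91 and 153, and without the first or second Ing4 library 10 and 8. A fit to the 4 libraries alone called 4 genes, and a fit to all 12 called 6.

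**Figure D1:**
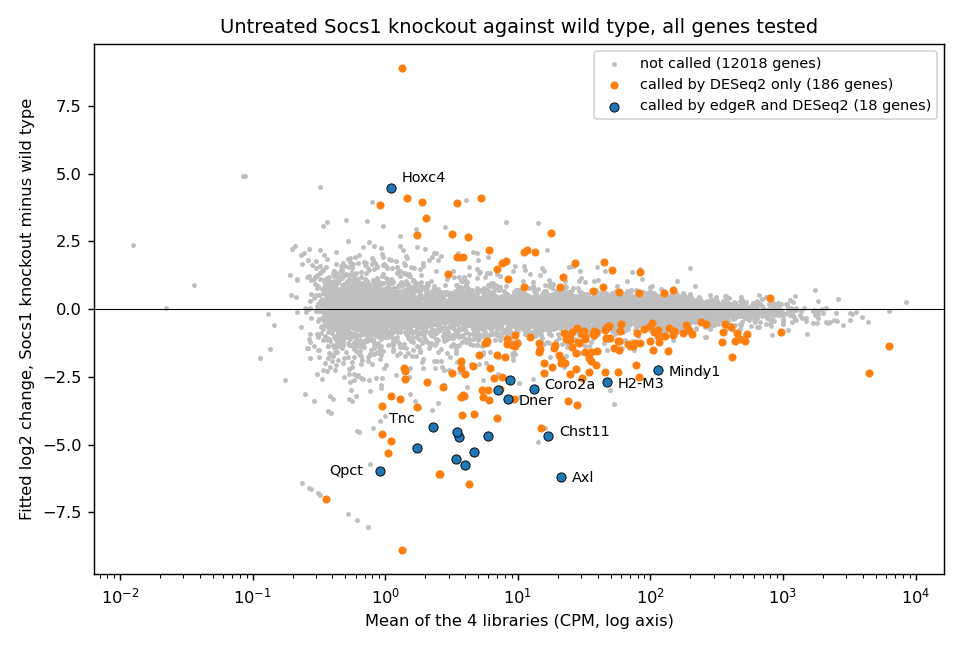
Fitted log2 change of each of the 12222 tested genes (vertical axis) against its mean over the 4 untreated libraries in CPM (horizontal axis, log scale). The 18 genes called by edgeR are blue, 17 of them below 0, and the 186 called by DESeq2 alone are orange.

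Of the 18 called genes 14 have an established name and average 2 CPM or more where they are higher, and they are described in turn by what they do. Both knockout libraries lying on the same side of both wild-type libraries was part of that choice, so nothing is read from it. Over all tested genes it held for 20.3% in the lower and 19.2% in the higher direction. The untreated Ing4 knockout libraries are given beside several of them. For all 17 called genes that fell, both Ing4 libraries also lay below both wild-type libraries. The share of all tested genes for which this held was not counted. The 17 were also called as higher in these same wild-type libraries, so nothing is read from that count. A comparison of Ing4 knockout with wild type uses the same wild-type libraries, so those values are not independent of the changes described here.

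At the cell surface, in antigen presentation and among chemokines 3 genes fell. H2-M3, a class Ib MHC molecule that presents N-formylated peptides of bacteria and mitochondria (chromosome 17, 37270220 to 37274484), measured 72.5 and 89.8 CPM in wild type and 14.1 and 10.8 CPM in the knockout. Its mean was 81.1 ± 12.3 CPM in wild type and 12.5 ± 2.32 CPM in the knockout (SD, n = 2 each). The log2 change of H2-M3 was -2.70 (SE 0.20, edgeR adjusted p = 0.011), and the Ing4 libraries lay between the groups at 24.8 and 24.4 CPM. H2-M3 lies in a segment of chromosome 17 in which the median gene was also lower in both knockout libraries, by 0.32 and 0.38 on the log2 scale, as described further on; the gene's own change was several times that size. Axl, a receptor tyrosine kinase that, through its ligand Gas6, takes part in clearing dying cells, was at 36.3 and 47.7 CPM in wild type and at 0.87 and 0.25 CPM in the knockout. The Ing4 libraries were at 8.24 and 5.85 CPM. The log2 change of Axl was -6.19 (SE 0.50, edgeR adjusted p = 0.021). Pf4, a chemokine best known from platelet granules, fell from 2.94 and 3.85 CPM to 0.087 and 0.099 CPM, a log2 change of -5.11 (SE 0.54, edgeR adjusted p = 0.022) that rests on 4 counts in the knockout.

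Among genes that act on the extracellular matrix Mmp12, Tnc and Chst11 fell. Mmp12, the macrophage metalloelastase, measured 6.10 and 9.46 CPM in wild type and 0.087 and 0.20 CPM in the knockout, a log2 change of -5.74 (SE 0.58, edgeR adjusted p = 0.021). Tnc encodes tenascin-C, a matrix glycoprotein that activates TLR4, and stood at 3.29 and 5.39 CPM against 0.22 and 0.20 CPM, a log2 change of -4.35 (SE 0.58, edgeR adjusted p = 0.049). Chst11, a sulfotransferase of chondroitin chains, stood at 33.8 and 31.6 CPM against 0.78 and 1.79 CPM, a log2 change of -4.68 (SE 0.53, edgeR adjusted p = 0.049). The Ing4 libraries were low for all 3 genes, at 0.13 and 0.28 CPM for Mmp12, at 0.044 and 0 CPM for Tnc and at 0.13 and 0.55 CPM for Chst11.

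Enzymes and regulators inside the cell made up the next group. Cers4, which makes ceramides with long acyl chains, was at 6.85 and 6.43 CPM in wild type and at 0.17 and 0.099 CPM in the knockout, a log2 change of -5.53 (SE 0.57, edgeR adjusted p = 0.021). Mindy1, a deubiquitinase that trims K48-linked ubiquitin chains, was at 154 and 220 CPM against 35.9 and 42.6 CPM, a log2 change of -2.26 (SE 0.21, edgeR adjusted p = 0.021), with 56.0 and 63.5 CPM in the Ing4 libraries. Abtb2, an ankyrin repeat and BTB domain protein, was at 4.48 and 9.28 CPM against 0.22 and 0.30 CPM, a log2 change of -4.72 (SE 0.58, edgeR adjusted p = 0.044). The 2 wild-type libraries of Abtb2 differed from each other by more than those of Cers4 did.

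Genes best known from the cytoskeleton or from neurons fell as well. Coro2a, a coronin that is also a component of the NCoR corepressor complex, went from 19.9 and 26.8 CPM to 2.73 and 3.38 CPM, a log2 change of -2.94 (SE 0.32, edgeR adjusted p = 0.025). Nes, the intermediate filament nestin, went from 13.5 and 9.41 CPM to 0.39 and 0.50 CPM, a log2 change of -4.68 (SE 0.56, edgeR adjusted p = 0.044). Nptxr, a neuronal pentraxin receptor, went from 8.87 and 9.41 CPM to 0.13 and 0.35 CPM, a log2 change of -5.26 (SE 0.52, edgeR adjusted p = 0.021). In the Ing4 knockout Nptxr was at 3.44 and 6.08 CPM. Dner, a transmembrane ligand of Notch receptors, went from 12.0 and 18.6 CPM to 1.91 and 1.14 CPM, a log2 change of -3.32 (SE 0.42, edgeR adjusted p = 0.044), with 3.57 and 6.26 CPM in the Ing4 libraries.

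Hoxc4, a homeobox transcription factor of the HOXC cluster on chromosome 15, was the gene that rose. It was nearly silent in wild type, at 0.13 and 0.045 CPM, and stood at 2.21 and 2.04 CPM in the knockout, a log2 change of 4.49 (SE 0.57, edgeR adjusted p = 0.044) that rests on 4 counts in wild type and 92 in the knockout. The Ing4 libraries were at 2.09 and 2.21 CPM.

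The other 4 called genes fell outside the rule for named genes and are given here after their values were seen. Qpct, a glutaminyl cyclase on chromosome 17, had 81 counts in wild type and 1 in the knockout, a raw ratio of wild type to knockout of 77.9 with a 95% exact interval from 13.6 to 3115 for counting error only. The predicted genes Gm17928, Gm17749 and Gm29340 had log2 changes of -4.54, -2.98 and -2.62. Gm17928 lies beside Cd200r2, a relative of the CD200 receptor, which measured 20.4 and 36.9 CPM in wild type and 0.56 and 2.24 CPM in the knockout. Cd200r2 was not called by edgeR (log2 change -4.38, SE 0.66, adjusted p = 0.14) but was called by DESeq2.

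**Figure D2:**
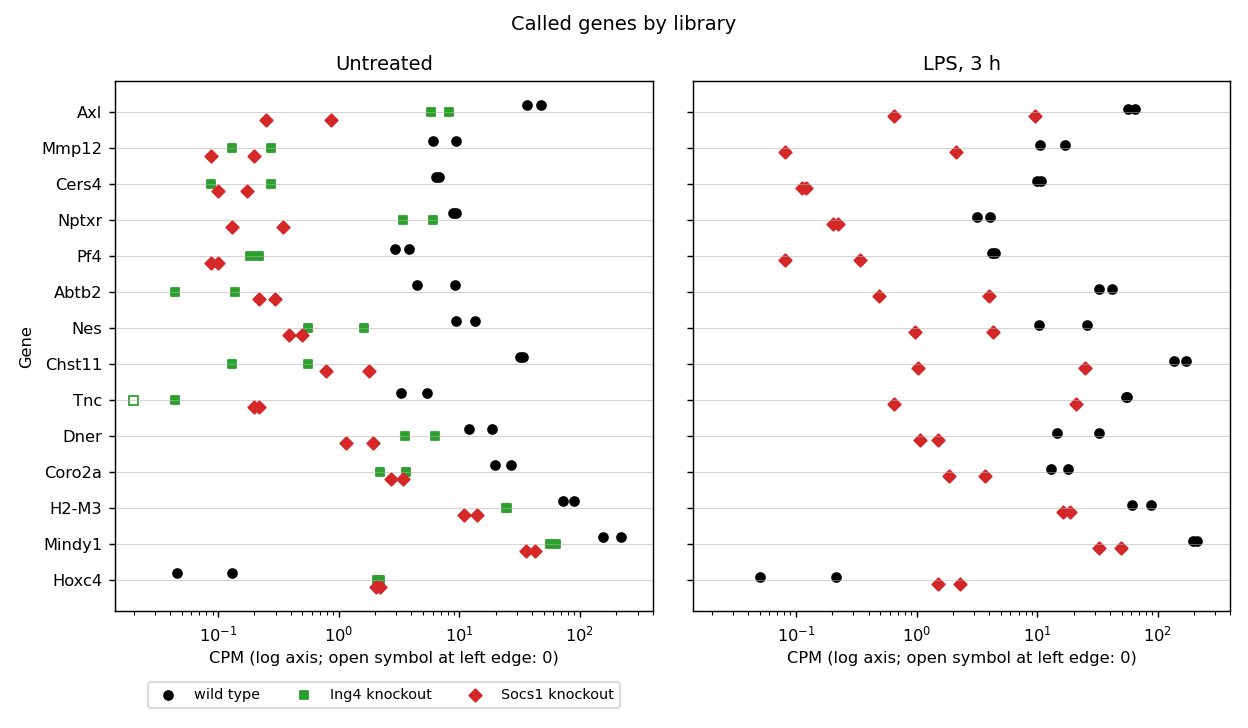
CPM (log axis) of the 14 named genes called by edgeR, 1 point per library, in the 6 untreated libraries (left) and in the LPS-treated wild-type and Socs1 knockout libraries (right). In both panels the 2 Socs1 knockout libraries lie below both wild-type libraries for 13 genes and above them for Hoxc4. On the left this separation was part of the choice of genes, so nothing is read from it. After LPS 34.7% of all genes tested were separated in either direction. The open symbol marks 0 CPM of Tnc in 1 Ing4 library.

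The promoters of the called genes were searched for the motifs of the factors that SOCS1 restrains. RefSeq promoters of GRCm38.p6, 250 bases before to 50 after a start, were found for 13 of the 18 genes (16 promoters). The STAT motif TTCNNNGAA, where N is any base and which reads the same on both strands, was in 1 of 16 (6.25%), against 8.30% of all 32851 promoters. The interferon response motif, GAAA followed by any 2 bases and GAAA again, searched on both strands, was in 1 of 16 (6.25%) against 3.44% of all. In the 171 promoters of genes that DESeq2 called lower the shares were 7.60% and 7.02%, and in the 33 of genes called higher 3.03% and 3.03%. The 2 promoters with a match are shown with it in capitals, because they are the members in which these letters stand. A match is a description of the letters and not a site. The promoter of H2-M3 is at chr17:37269984-37270283 on the plus strand, with the match starting 209 bases before the start, and the second promoter of Coro2a is at chr4:46566391-46566690 on the minus strand, with the match, on the opposite strand, starting 13 bases before the start.
H2-M3: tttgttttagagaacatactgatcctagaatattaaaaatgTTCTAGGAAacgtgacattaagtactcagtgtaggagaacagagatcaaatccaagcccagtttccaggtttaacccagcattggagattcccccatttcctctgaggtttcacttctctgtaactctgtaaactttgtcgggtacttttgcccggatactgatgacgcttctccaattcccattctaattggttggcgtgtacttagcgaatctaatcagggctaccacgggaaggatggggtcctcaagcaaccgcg
Coro2a: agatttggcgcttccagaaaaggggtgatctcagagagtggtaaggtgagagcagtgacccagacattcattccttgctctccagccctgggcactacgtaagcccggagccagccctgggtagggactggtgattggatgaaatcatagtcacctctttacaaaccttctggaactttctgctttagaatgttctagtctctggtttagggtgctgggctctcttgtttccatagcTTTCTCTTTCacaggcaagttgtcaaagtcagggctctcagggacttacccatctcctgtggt

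Whether these genes also separated the Socs1 knockout from the other knockout line was tested directly in the same 6 libraries. Between the untreated Socs1 and Ing4 knockouts edgeR called 14 genes (0.115%), 8 lower (0.0655%) and 6 higher in the Socs1 knockout, with 533 (4.36%) at an unadjusted p of 0.05, and 1 of the 18 genes called against wild type was among them. Without 1 library the count was 3 (either Ing4 library), 5 (either wild-type library), 92 or 108 (the first or second Socs1 knockout library). The gene called in both was Nptxr, with a log2 change of -4.32 between the knockouts (edgeR adjusted p = 0.034). Axl came next among the named genes, with a log2 change of -3.62 and an edgeR adjusted p of 0.08. H2-M3 differed from the Ing4 line by -0.98 (edgeR adjusted p = 0.20) and Hoxc4 by -0.02 (edgeR adjusted p = 1). Apart from Nptxr, then, none of the named changes from wild type was shown to be particular to the Socs1 knockout, and a change in wild type and a change in both knockouts cannot be told apart with 1 wild-type line.

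The LPS-treated libraries, which the untreated comparison does not use, hold the same contrast in the same lines. They are not independent samples: the difference between first and second library correlated between untreated and LPS-treated libraries at 0.58 in the Socs1 knockout and at 0.53 in wild type over 12222 genes. Between LPS-treated Socs1 knockout and wild type edgeR called 8 of 12771 genes (0.0626%), all lower, and 5 of the 18 genes were among them: H2-M3, Mindy1, Cers4, Pf4 and Dner. Without the library that stood apart edgeR called 0 of 13262 genes (0%; 1442 at an unadjusted p of 0.05), so no called gene held its call there. Without the other LPS-treated knockout library it called 1196, without the first or second LPS-treated wild-type library 4 and 0, and without any 1 Ing4 library 1. With the library that stood apart and without it the sign of all 18 log2 changes was that of the untreated comparison. For all 18 genes both LPS-treated knockout libraries lay on the same side of both LPS-treated wild-type libraries, against 34.7% of all genes tested in the untreated comparison that were separated after LPS in either direction. H2-M3 was at 60.8 and 87.3 CPM in LPS-treated wild type and at 16.5 and 18.8 CPM in the knockout, and Cers4 at 10.7 and 10.0 CPM against 0.12 and 0.11 CPM. For Tnc and Chst11 the 2 knockout libraries differed after LPS: Tnc reached 54.4 and 55.1 CPM in wild type but 0.65 CPM in the knockout library that stood apart and 21.1 CPM in the other, and Chst11 reached 171 and 136 CPM against 1.02 and 24.8 CPM. The difference of the genotype contrast between treatments was tested as well. It gave 0 calls by edgeR (0%; 102 genes at an unadjusted p of 0.05, 0.799%) and 0 by DESeq2, and 61 calls by edgeR without the second LPS-treated knockout library. None of the 18 genes had an unadjusted p under 0.05 in edgeR.

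The authors' deposited table for this comparison lists 74 genes, 15 higher and 59 lower in the knockout. Of these 72 were tested here, and all 72 had the same sign. The authors' list describes the same groups of libraries, so a shared sign is not independent and nothing is read from it. The 13 genes shared with the edgeR calls are 72.2% of those calls and 17.6% of the deposited list; the 65 shared with the DESeq2 calls are 31.9% and 87.8%. Genes of the deposited table with large counts included Spp1, the secreted glycoprotein osteopontin, at 8288 and 6464 CPM in wild type and 1707 and 1182 CPM in the knockout. Its log2 change in the authors' deposited table was -1.94, and here it was -2.36 (SE 0.34, edgeR adjusted p = 0.072). The authors' value is shrunken, so the 2 are unlike measures. Lyz1, a lysozyme gene with a near-identical neighbour in Lyz2 between which short reads can be split, was at 7246 and 10941 CPM against 3103 and 3976 CPM. Spp1 and Lyz1 did not pass the edgeR threshold. Among genes higher in the knockout in the deposited table were Trip6, an adaptor of focal adhesions, at 23.2 and 32.7 CPM against 85.1 and 65.6 CPM, and Ocstamp, a gene of osteoclast cell fusion, at 0.75 and 0.86 CPM against 5.46 and 5.57 CPM. Their edgeR adjusted p was 0.098 and 0.14. Ocstamp lies next to Zfp334, a zinc finger gene at 0.13 and 0.59 CPM in wild type and 4.46 and 2.99 CPM in the knockout, and Zfp334 had 0 counts in both Ing4 libraries.

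Of 42 tested JAK-STAT and SOCS genes 0 were called by edgeR, against 0.147% of all genes, and 0 by DESeq2, against 1.67%. For a list of this size 0 calls is near those shares. In the list 2 genes had an unadjusted p under 0.05, and the median log2 change was -0.01 against 0.00 over all genes. The kinase Jak1 was at 192 and 206 CPM in wild type and 186 and 202 CPM in the knockout. Socs3, a family member that restrains IL-6 signalling, was at 7.24 and 9.10 CPM against 10.7 and 12.5 CPM (log2 change 0.50, SE 0.25, edgeR adjusted p = 0.74). Cish, another member of the family, did not pass the filter, with 0 to 0.087 CPM in the 4 libraries. Of 14 elongin, cullin and other partners of the SOCS1 ubiquitin ligase 0 were called, and their median log2 change was 0.02.

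Interferon-stimulated genes lay below wild type in the knockout without passing the edgeR test. These are antiviral genes switched on by type I interferon. Of 52 tested type I interferon-stimulated genes 0 were called by edgeR, against 0.147% of all genes. For a list of this size 0 calls is near that share. A negative log2 change was seen in 51 of the 52, against 49.5% of all genes. The median was -0.70 against 0.00 over all genes, and 16 had an unadjusted p under 0.05 in the lower direction, which is 30.8% against 5.26% of all genes. In 37 of the 52 both knockout libraries lay below both wild-type libraries, against 20.3% of all genes tested. The knockout libraries were unequal: relative to the wild-type mean the median gene was at -1.23 in the first and at -0.24 in the second, while the 2 wild-type libraries differed by a median of -0.01. The Ing4 libraries were at -0.41 and -1.01 on the same measure. In the LPS-treated knockout libraries the median was -3.84 in the one that stood apart and 0.30 in the other, relative to LPS-treated wild type.

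Single interferon-stimulated genes followed that pattern. DESeq2 called 4 of the 52 lower, against 1.37% of all genes: Ifitm3, an antiviral membrane protein, Oasl1, a translational brake on Irf7, Ifi204, a DNA sensor family member, and Cmpk2, a mitochondrial nucleotide kinase. Oasl1 was at 41.7 and 62.7 CPM in wild type and 7.72 and 10.2 CPM in the knockout (log2 change -2.55, SE 0.47, edgeR adjusted p = 0.21). Irf7, the master regulator of type I interferon genes, was at 36.9 and 33.6 CPM against 4.64 and 16.7 CPM (log2 change -1.74, SE 0.79, edgeR adjusted p = 0.75). The 2 knockout libraries of Irf7 differed more from each other than the wild-type libraries did. Isg15, a ubiquitin-like protein, was at 4.70 and 5.11 CPM against 1.08 and 2.79 CPM, and Ifit1, a sensor of uncapped RNA, at 3.12 and 4.30 CPM against 0.61 and 2.99 CPM. Their log2 changes were -1.35 and -1.06 (SE 0.67 and 0.83, edgeR adjusted p = 0.75 and 0.90). Of the 52 genes 3 lie in the low segments of chromosomes 12 and 17 described further on, Rsad2, Cmpk2 and Eif2ak2; over the other 49 the median was also -0.70.

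Of 18 GBP and IRG GTPases, which attack the vacuoles of intracellular microbes, 7 were tested. All 7 had a negative log2 change, against 49.5% of all genes, with a median of -1.14. In the lower direction 4 had an unadjusted p under 0.05 in edgeR, which is 57.1% against 5.26% of all genes. By edgeR and by DESeq2 0 were called, against 0.147% and 1.67% of all genes. For a list of this size 0 calls is near those shares. Irf1, a transcription factor induced by interferons, was at 18.7 and 22.9 CPM against 14.9 and 16.4 CPM (log2 change -0.41, SE 0.20, edgeR adjusted p = 0.72). Cxcl10, an interferon-induced chemokine, was at 3.64 and 2.40 CPM against 5.29 and 3.33 CPM, with overlapping groups and a log2 change of 0.51 (SE 0.50, edgeR adjusted p = 0.93). The MHC class II genes, whose induction by interferon gamma runs through Ciita, had a median of 0.02 over 13 tested genes. Of these 13 edgeR called 0, against 0.147% of all genes, and DESeq2 called 1 lower, against 1.37%.

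MHC class I antigen presentation held 1 of the 17 genes that fell, H2-M3. Over all genes 0.139% were called lower by edgeR. Of 24 tested members 22 had a negative log2 change, against 49.5% of all genes, and the median was -0.61. In the lower direction 11 had an unadjusted p under 0.05, against 5.26% of all genes. DESeq2 called 3 lower, against 1.37%: H2-M3, the class Ib gene H2-T23 (58.3 and 67.0 CPM against 29.7 and 31.2 CPM) and Tapbp, the peptide-loading factor tapasin (240 and 249 CPM against 137 and 150 CPM). Classical class I genes passed neither test: H2-D1 was at 648 and 966 CPM in wild type and 613 and 413 CPM in the knockout, and H2-K1 at 412 and 626 CPM against 429 and 261 CPM. The H2-K1 groups overlapped. Position moved with this result. The 14 members in the low segment of chromosome 17, which holds the MHC, were all negative with a median of -0.70 and 10 at an unadjusted p under 0.05, and the 10 members elsewhere had a median of -0.39 with 1 at that p. The 2 wild-type libraries differed from each other by a median of -0.45 over those 14 genes. B2m, the light chain of class I molecules, lies on chromosome 2 and was at 823 and 918 CPM against 658 and 548 CPM (log2 change -0.53, SE 0.20, edgeR adjusted p = 0.57). H2-D1, H2-K1 and H2-Q4 are close relatives, and the sources used here do not say how reads shared between them were counted.

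Chemokines were the list with the lowest median. Of 18 tested chemokines and receptors 1 was called by edgeR, Pf4, against 0.147% of all genes. A negative log2 change was seen in 13 of the 18, against 49.5% of all genes, and the median was -1.40. DESeq2 called 6 lower and 0 higher, against 1.37% and 0.303% of all genes: Pf4, Ccl3, Ccl4, Ccl9, Cxcl2 and the complement receptor C5ar1. Ccl4, a chemokine that attracts monocytes and T cells, was at 103 and 85.9 CPM in wild type and at 19.0 CPM in both knockout libraries (log2 change -2.32, SE 0.31, edgeR adjusted p = 0.08). Ccl3, a related chemokine, was at 253 and 148 CPM against 75.8 and 62.0 CPM, and Ccl9 at 495 and 768 CPM against 212 and 163 CPM. C5ar1 was at 138 and 142 CPM against 17.1 and 32.5 CPM (log2 change -2.50, SE 0.40, edgeR adjusted p = 0.15). Ccl9, Ccl6, Ccl3 and Ccl4 are neighbours on chromosome 11 and were the 4 tested genes of that stretch, each with an unadjusted p under 0.05; Pf4 and Cxcl2 are neighbours on chromosome 5. After LPS the knockout libraries fell on either side of wild type: Ccl4 reached 3783 and 4497 CPM in wild type, 818 CPM in the knockout library that stood apart and 6000 CPM in the other.

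Of 31 tested NF-kB targets 0 were called by edgeR, against 0.147% of all genes. For a list of this size 0 calls is near that share. A negative log2 change was seen in 23 of the 31, against 49.5% of all genes, and the median was -0.29. DESeq2 called 5 of the 31 lower, against 1.37% of all genes. Their median difference from the wild-type mean was -0.44 in the first knockout library and -0.11 in the second, while the 2 wild-type libraries differed from each other by -0.47. Tnf, the main early macrophage cytokine, was at 84.7 and 83.8 CPM in wild type and at 41.2 and 61.7 CPM in the knockout (log2 change -0.72, SE 0.23, edgeR adjusted p = 0.45). Tnf also lies in the low segment of chromosome 17. Il1b did not pass the filter, at 0 to 0.50 CPM. The receptors, adaptors and kinases of the Toll-like receptor (TLR) pathway had a median of 0.09 over 34 tested genes. Of these 34 edgeR called 0, against 0.147% of all genes, and DESeq2 called 1 lower, against 1.37%. Il1rn, the interleukin-1 receptor antagonist, was at 107 and 144 CPM against 34.0 and 26.3 CPM, called by DESeq2 and not by edgeR (log2 change -2.06, SE 0.31, adjusted p = 0.11).

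Of 34 tested macrophage identity genes 1 was called by edgeR, Axl, against 0.147% of all genes. A negative log2 change was seen in 28 of the 34, against 49.5% of all genes, and the median was -0.21. Their median difference from the wild-type mean was -0.52 in the first knockout library and -0.08 in the second. Csf1r, the receptor of the macrophage growth factor CSF1, was at 2156 and 2070 CPM against 2115 and 1700 CPM, and Cd68 at 807 and 1116 CPM against 678 and 1043 CPM. Cd14, the LPS co-receptor, was at 1235 and 1240 CPM against 545 and 847 CPM (log2 change -0.83, SE 0.26, edgeR adjusted p = 0.42), and was called by DESeq2. Of 14 osteoclast genes 0 were called by edgeR, against 0.147% of all genes. DESeq2 called 1 higher, Ocstamp, against 0.303% of all genes, and 3 lower, Mmp9, Src and the fusion gene Dcstamp, against 1.37%. The pair of fusion receptors thus differed in sign: Dcstamp was at 46.3 and 59.7 CPM against 22 and 8.76 CPM. Of 23 matrix genes and proteases 1 was called, Mmp12, while DESeq2 called 5 lower, Spp1, Mmp9 and Mmp12 among them, and 1 higher, the collagen gene Col15a1. Over all genes these shares were 0.147% by edgeR and 1.37% lower and 0.303% higher by DESeq2.

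Several other lists had medians close to that of all genes. Of the 35 lists 5 held a called gene, and the fifth, beside those named for H2-M3, Pf4, Axl and Mmp12, was sphingolipid metabolism through Cers4, with a median of 0.01 over its 24 members. Medians were 0.03 for 24 cholesterol synthesis genes, 0.09 for 27 lipid handling and LXR target genes, -0.08 for 35 lysosome and autophagy genes, -0.08 for 33 p53 targets and -0.18 for 29 NRF2 and metallothionein genes. The 49 cell cycle genes had a median of 0.09 with 15 negative, against 49.5% of all genes. Their median difference from the wild-type mean was 0.25 in the first knockout library and -0.03 in the second, and the 2 wild-type libraries differed by 0.18. Of the cell cycle genes DESeq2 called Mki67, the proliferation marker, at 687 and 665 CPM against 931 and 894 CPM (log2 change 0.43, edgeR adjusted p = 0.69). Lower medians without an edgeR call were those of 13 IL-4 and STAT6 targets at -0.94, 8 dendritic cell markers at -0.50, 23 immediate early genes at -0.49, 33 glycolysis and hypoxia genes at -0.38 and 30 genes of the unfolded protein response at -0.35. Of the 13 IL-4 and STAT6 targets 6 were lower at an unadjusted p under 0.05 in edgeR (46.2%), against 5.26% of all genes. DESeq2 called 1 of the 13 lower, against 1.37%. Relative to the wild-type mean their median was -0.90 and -0.74 in the Socs1 knockout libraries and -0.88 and -0.40 in the Ing4 libraries. The 2 wild-type libraries differed by -0.31. Of the 30 unfolded protein response genes 28 were negative, against 49.5% of all genes. In 17 of the 30 both knockout libraries lay below both wild-type libraries, against 20.3%. The first knockout library was at -0.68 for this list and the second at -0.18. For glycolysis 28 of 33 genes were negative, and the 2 wild-type libraries differed by a median of -0.47, which is more than the change. Of 42 cytoskeleton and migration genes 32 were negative, with a median of -0.22. In 22 of the 42 both knockout libraries lay below both wild-type libraries. Of 33 oxidative phosphorylation genes 28 were negative, with a median of -0.09.

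**Figure D3:**
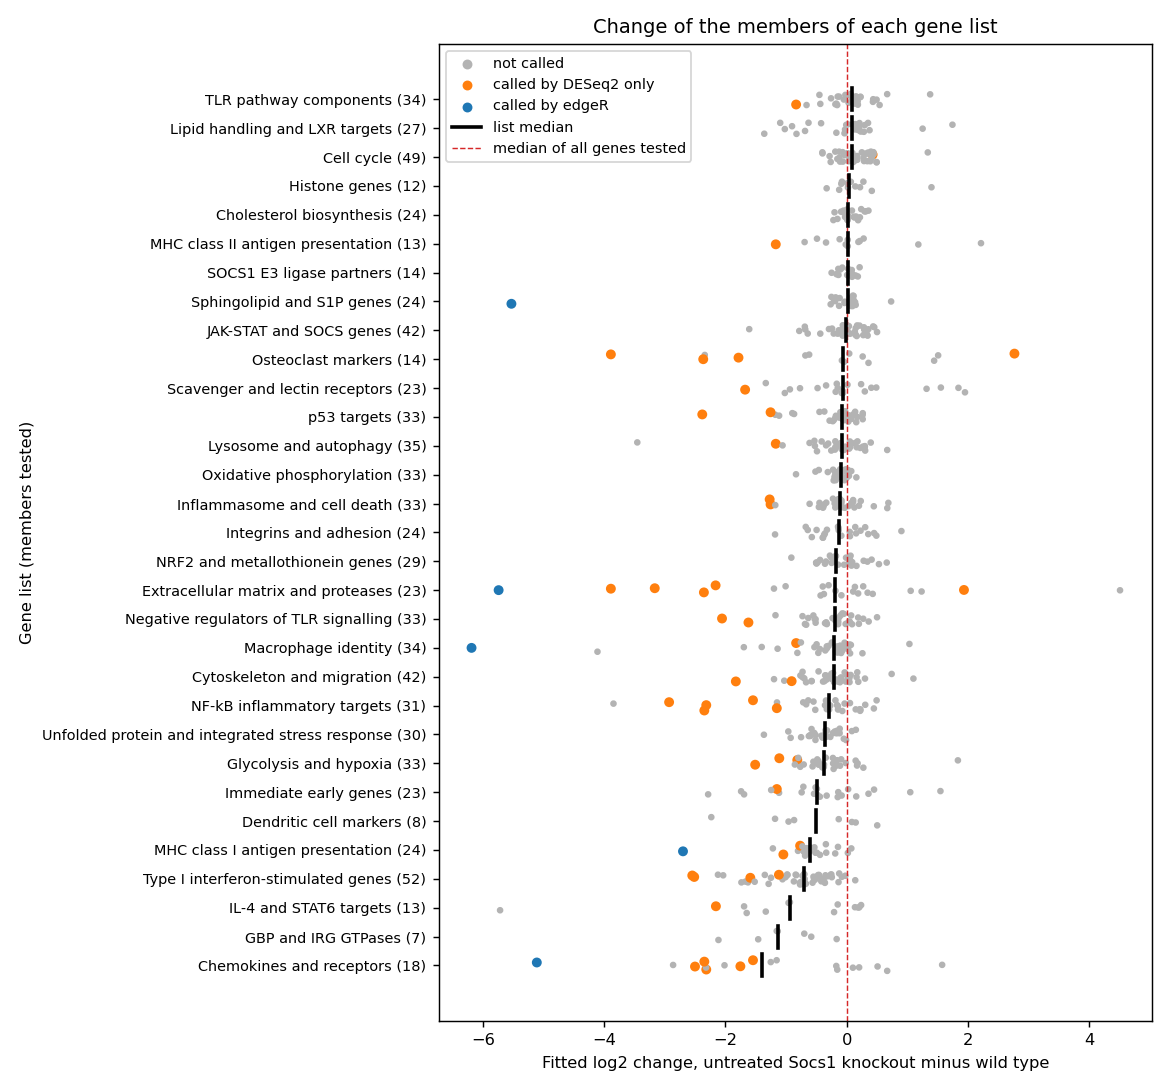
Fitted log2 change of every tested member (points) of the lists reported here with at least 5 tested members, with the list median as a black bar and the median of all genes tested, 0.00, as a dashed line. Chemokines, GBP and IRG GTPases, IL-4 targets, interferon-stimulated genes and MHC class I have the lowest medians, from -1.40 to -0.61, and 5 members in all are called by edgeR.

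Genes of 2 chromosome segments lay below wild type together in both knockout libraries. This was noticed after values were seen, and it is described over the 9443 genes with a mean of at least 5 CPM. In windows of 10 Mb with at least 10 such genes, the median log2 difference from the wild-type mean was below -0.2 in both knockout libraries in 11 of 239 windows. Of these 6 lay on chromosome 17 and 5 on chromosome 12, with 0 elsewhere, and in 0 windows were both libraries above 0.2. The 2 wild-type libraries differed from each other by more than 0.2 in 8 windows.

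The low windows of chromosome 17 were adjacent, from 30 to 90 Mb. Those of chromosome 12 ran from 0 to 40 Mb and from 50 to 60 Mb, and the window between held fewer than 10 genes and was not measured. On chromosome 17 from 30 Mb to its end the median over 313 genes was -0.32 in the first knockout library and -0.38 in the second, and 80.8% of the genes were below the wild-type mean in both, against 29.2% on the chromosomes other than 11, 12 and 17. Before 30 Mb on the same chromosome the medians over 175 genes were 0.06 and 0.02. On chromosome 12 before 60 Mb the medians over 117 genes were -0.38 and -0.36, with 91.5% of the genes below in both libraries, and from 60 Mb on they were 0.03 and 0.02 over 219 genes. The chromosomes other than 11, 12 and 17 had medians of 0.02 and 0.00 over 7807 genes. In the fit 122 of 401 tested genes of the chromosome 17 segment were lower at an unadjusted p under 0.05 (30.4%), against 5.26% of all genes. Among them were the called genes H2-M3 and Qpct. In the chromosome 12 segment 37 of 147 were lower at that p (25.2%), with 0 called. Over all genes 0.139% were called lower. The segments were bounded by the low medians of these same libraries, so raised shares of low genes inside them follow in part from that choice.

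**Figure D4:**
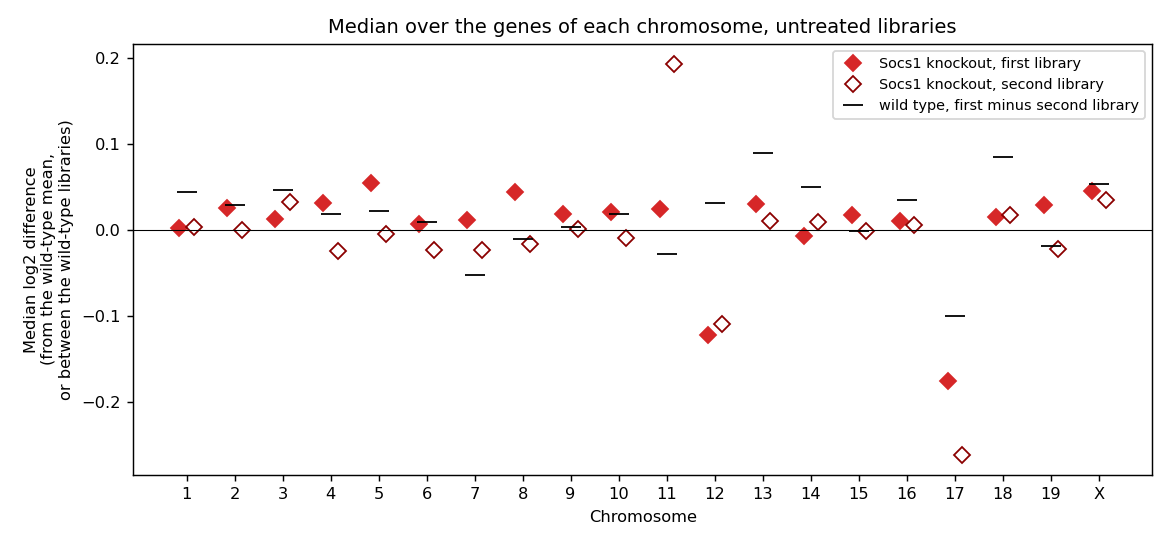
Median log2 difference of each untreated Socs1 knockout library from the wild-type mean, over the genes with at least 5 CPM of each chromosome, with the difference between the 2 wild-type libraries as a dash. Both knockout libraries are low on chromosomes 12 and 17, and the second is high on chromosome 11, at 0.19 against 0.02 in the first.

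The LPS-treated libraries, which played no part in the choice of the segments, had similar values. Relative to LPS-treated wild type the chromosome 17 segment was at -0.28 and -0.36 in the knockout libraries and the chromosome 12 segment at -0.45 and -0.33, the first value of each pair from the library that stood apart. The untreated Ing4 libraries were at -0.28 and -0.36 for chromosome 17 and at -0.39 and -0.26 for chromosome 12, relative to the same wild-type libraries. A higher level in wild type and a lower level in both knockouts therefore cannot be told apart from these values. DNA was not measured.

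Chromosome 11 differed between the 2 Socs1 knockout libraries. Outside 1 window its median over 736 genes was 0.03 in the first library and 0.23 in the second, and in the window from 50 to 60 Mb, over 76 genes, it was -0.03 in the first and -0.37 in the second. The LPS-treated knockout libraries of the same numbers had 0.03 and 0.27 for the first set and 0.01 and -0.34 for the second. The Ing4 libraries were between 0.01 and 0.05 for both sets. The 2 knockout libraries were thus not interchangeable samples, and over all tested genes their log2 difference had an SD of 0.55, against 0.38 between the wild-type and 0.47 between the Ing4 libraries. In the knockout 714 genes (5.84%) differed by more than 2-fold between the 2 libraries, against 285 (2.33%) in wild type.

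**Figure D5:**
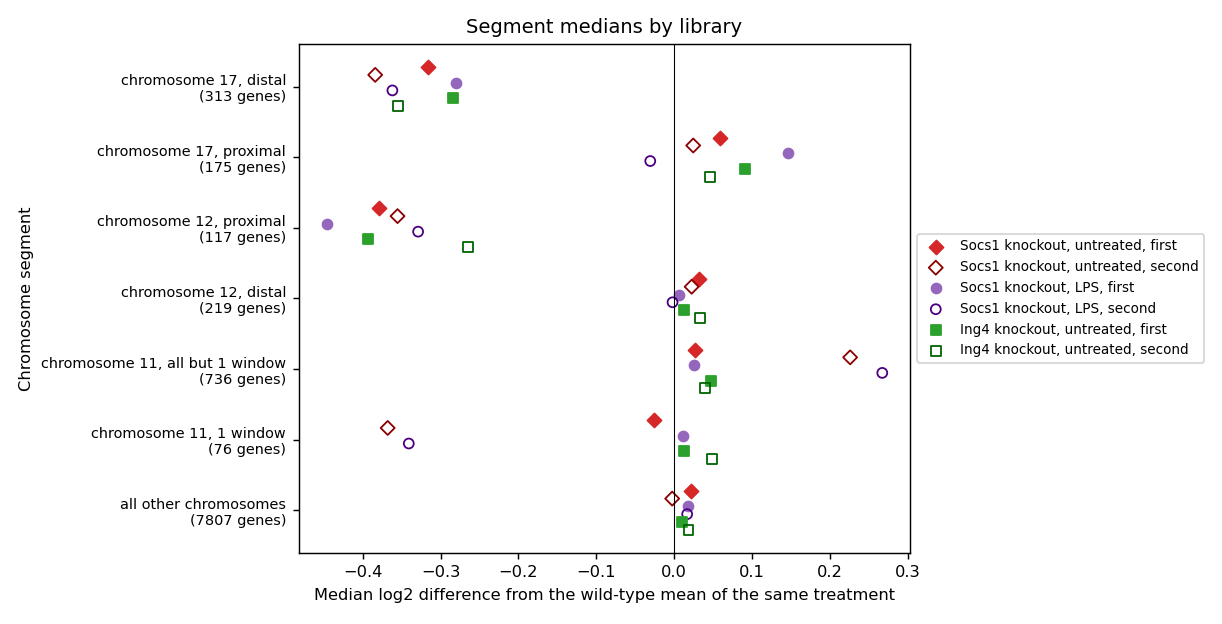
Median log2 difference from the wild-type mean of the same treatment (horizontal axis) for each chromosome segment (vertical axis), 1 symbol per library. All 6 knockout libraries shown lie between -0.45 and -0.26 for distal chromosome 17 and proximal chromosome 12, while the chromosome 11 sets set the second Socs1 knockout library apart in both treatments.

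The neighbourhood of Socs1 itself was also examined. Socs1 lies on chromosome 16 (10782240 to 10785536, minus strand). Within 1 Mb on either side 15 genes were tested, Socs1 itself among them. Of these 0 were called by edgeR, against 0.147% of all genes, and 3 had an unadjusted p under 0.05, against 7.51%. The median log2 change was -0.16. The largest difference was at Emp2, a tetraspan membrane protein gene 468 kb away, at 3.16 and 6.88 CPM in wild type and at 0.13 and 0 CPM in the knockout (edgeR adjusted p = 0.062). Emp2 had 3 counts in the knockout and 224 in wild type, and it was also near 0 in the Ing4 libraries, at 0.044 and 0.046 CPM.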

How the data were processed

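RNA of RAW264.7 cells was sequenced after poly(A) selection with a stranded kit, per the labels. The authors deposited 1 table of read counts per Ensembl gene, whole numbers without scaling, and HTSeq, HISAT, StringTie, DESeq2 and FastQC are the tools named, per the submitters' processing notes. The sources used here give no versions or settings and do not say whether counting used strand. The authors' deposited table of genes for this comparison also holds shrunken log2 changes, adjusted p-values and group means, a normalized signal in the authors' own scale. The processing notes name the build GRCh38, but the gene identifiers are mouse and 72 of 74 positions (97.3%) in the authors' table equal GRCm38, which gives the coordinates here. The treatment protocol names HEK293T, while every sample label names the mouse line. Columns were assigned through the sample descriptions, and 0 were left unmatched.

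Counts were tested in R 4.3.3 with edgeR 4.0.16 (filterByExpr, TMM scaling, robust quasi-likelihood F-test) on the 6 untreated libraries, with Benjamini-Hochberg adjustment over all 12222 tested genes and calls at an adjusted p of 0.05. The Ing4 libraries help to estimate the spread; the biological coefficient of variation was 0.219. The SE is the size of the log2 change divided by the root of F. CPM use library totals scaled by TMM over all 12 libraries (17250815 to 24377950 counts). Contrasts after LPS and the difference between treatments used all 12. The script was tested on simulated counts. DESeq2 1.42.0, limma-voom 3.58.1, other scalings, filters and left-out libraries were alternatives.

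The 35 gene lists (974 of 977 symbols matched), the comparison and its tests were chosen with earlier results of these data known. Lists are described by counts and medians, and no set test was run. Named were Socs1, 10 signalling and cytokine genes around SOCS1, up to 15 called genes each way with an established symbol, a higher group mean of 2 CPM or more and no overlap between groups, and up to 4 called members of a list. Other names were chosen after values were seen. Of the genes and lists, 1 signalling gene and 1 list are not reported here; counts over all genes and lists include them. Window and segment values are medians of log2(CPM + 0.5).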

Additional observations from a re-analysis of the deposited data

Results flagged for a closer look

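Nptxr was the called gene for which the Socs1 knockout also differed from the untreated Ing4 knockout by a direct test: its log2 difference between the knockouts was -4.32 (edgeR adjusted p = 0.034), with 0.13 and 0.35 CPM in the Socs1 and 3.44 and 6.08 CPM in the Ing4 knockout libraries.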

How the results depend on the processing

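The number of genes called in the untreated comparison (18) was 15 with RLE scaling, 17 with limma-voom, 24 with all libraries but the first LPS-treated Socs1 knockout, 8 with upper quartile scaling, 8 with a test against a fold of 1.5, 6 with all 12 libraries, 5 over genes with a mean of at least 5 CPM, 4 with the 4 libraries only, 204 with DESeq2, 473 without a filter on low counts and 0 at an adjusted p of 0.01. Leaving out 1 library gave 0 to 153. The count against the Ing4 knockout (14) was 118 with DESeq2, 6 with all 12 libraries and 3 to 108 with 1 library left out. The count after LPS (8) was 243 with DESeq2 and 0 to 1196 with 1 library left out. The difference between treatments gave 0 to 61 with 1 library left out. The overlap with the authors' deposited table (13) was 65 with DESeq2, 6 with all 12 libraries and 3 with the 4 libraries only. The causes of these movements were not tested.

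With the replicate number as a block the counts were 15 in the untreated comparison, all lower and 11 of them among the 18, 8 against the Ing4 knockout, 18 after LPS and 0 for the difference between treatments. The numbers were not shown to pair the genotypes: with 2 pairs, the difference between first and second library correlated at 0.14 between wild type and Socs1 knockout over 12222 genes. Under the block Hoxc4 (adjusted p = 0.078), Dner (0.084) and Tnc (0.091) missed the threshold. Same-numbered libraries correlated at 0.58 between untreated and LPS-treated Socs1 knockout and at 0.53 in wild type. A block within each genotype, chosen after the data were seen, gave 0 calls for the difference between treatments and 360 genes at an unadjusted p of 0.05, among them Nes and H2-M3, 2 of the 18.

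For the 14 named called genes, 245 pairs of a gene and a setting were tried. The sign was kept in all 245, but these were refits of the same libraries, so nothing is read from that. In 100 of the 245 pairs the gene missed the threshold of its setting. None of the genes passed the stricter adjusted p, so each counts there as missed although its own adjusted p was unchanged. The 100 also include fits with a library left out of a group. The alternatives for the segment medians were chosen after the data were seen. Of 18 pairs of a segment and a setting, 14 moved by less than the spread between the knockout libraries. The other 4, all with library totals in place of TMM, moved by more. The segment of chromosome 17 was then at -0.30 and that of chromosome 12 at -0.30, in place of -0.37 and -0.37. The untreated wild-type and Socs1 knockout libraries held 17250815 to 20932111 counts, with 2 libraries per group.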

Other observations

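Between the untreated knockouts, 13 genes other than Nptxr passed the edgeR test, and these were named after their values were seen. For most of them the Socs1 knockout libraries were nearer to wild type than the Ing4 libraries were. Sema5a, a semaphorin, was at 5.98 and 6.92 CPM in the Socs1 knockout and 14.5 and 10.5 CPM in wild type, but at 112 and 89.7 CPM in the Ing4 knockout. Tanc1, a scaffold protein, was at 41.5 and 43.0 CPM in the Socs1 knockout and 55.5 and 58.4 CPM in wild type, and at 2.27 and 1.66 CPM in the Ing4 knockout. An exception was Aplp1, a relative of the amyloid precursor protein, which had 0 counts in both Socs1 knockout libraries, 32 counts in wild type and 2.00 and 2.76 CPM in the Ing4 knockout. With a floor of 3 counts over the group Aplp1 was at least 10.3-fold higher in wild type than in the Socs1 knockout, and edgeR did not call it in that comparison (adjusted p = 0.096).

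Genes called after LPS and not in the untreated comparison included Odc1, the first enzyme of polyamine synthesis, which lies in the low segment of chromosome 12. It was at 480 and 485 CPM in untreated wild type and 266 and 152 CPM in the untreated Socs1 knockout (edgeR adjusted p = 0.22), and at 4186 and 3752 CPM after LPS in wild type against 785 and 787 CPM in the knockout (edgeR adjusted p = 0.023). Hhex, a homeobox factor, was at 31.3 and 41.4 CPM after LPS in wild type and 10.6 and 9.84 CPM in the knockout (edgeR adjusted p = 0.023). Neither call held without the knockout library that stood apart (adjusted p = 0.14 for both), although for both genes its value lay close to that of the other knockout library.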
